A study of Mus musculus with 6 samples.

Results

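Sprr1a, Lce1g, Lce1h, Lce3c, Lce3d and Crct1 are genes of the cornified envelope, and they were examined here in cultured cells of the mouse retinal pigment epithelium (RPE) and choroid. The members are 6 of the 52636 genes in the count table, and they were chosen by their UMI counts (UMI, unique molecular identifier) in these same cells, where an earlier look had shown them marking sub-populations. Their levels across cell types and sub-clusters are therefore a description and carry no test. The RPE is the pigmented layer beneath the retina and the choroid is the vascular layer behind it. The cells were dissociated from male C57BL/6J mice aged 12 to 16 months, kept in culture and profiled by 3′ single-cell RNA sequencing, from Dram2 wt/wt mice (wt/wt, 3 samples) and Dram2 ko/ko mice (ko/ko, 3 samples). The ko allele is a constitutive deletion of exon 4 of Dram2, an autophagy regulator linked to retinal dystrophy, made with CRISPR/Cas9 in C57BL/6J zygotes. The study asked what Dram2 loss does to choroidal and RPE cells, and nothing in the labels says whether each sample was a separate animal, so the p-values measure the spread between these samples.

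The cornified envelope is the cross-linked protein shell that replaces the plasma membrane of keratinocytes at the end of their differentiation. Small proline-rich proteins such as Sprr1a and late cornified envelope (Lce) proteins are precursors that transglutaminases join into this shell. Their genes lie with those of involucrin, loricrin, filaggrin and the S100 calcium-binding proteins in the epidermal differentiation complex, which is switched on as a block in skin. Sprr1a is also known as a gene that rises in injured and stressed cells outside the skin. Crct1 (cysteine-rich C-terminal 1) is a small gene of the same complex that is known from squamous epithelium. Neither fibroblasts nor RPE cells form a cornified envelope.

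The 6 members lay on chromosome 3 of GRCm38, in the order Sprr1a (ENSMUSG00000050359, 92483952 to 92485895, minus strand), Lce1g (ENSMUSG00000027919, 92750148 to 92752338, minus), Lce1h (ENSMUSG00000049593, 92763215 to 92765065, minus), Lce3c (ENSMUSG00000045475, 92944486 to 92945733, plus), Lce3d (ENSMUSG00000043472, 92957390 to 92958505, plus) and Crct1 (ENSMUSG00000027913, 93014205 to 93015687, minus). Each gene has 2 exons and a short coding sequence, of 144 codons in Sprr1a, 139 in Lce1g, 140 in Lce1h, 98 in Lce3c, 98 in Lce3d and 102 in Crct1. Lce1g and Lce1h are neighbours with 10876 bases and no other protein-coding gene between them, and Lce3c and Lce3d are neighbours with 11656 bases between them. Their transcripts were 67.9% identical in the first pair and 82.9% in the second. Reads of the 3′ end cannot tell copies with the same letters apart, so each count is only as certain as the end of its transcript is unique. As a guide, the last 400 bases of each transcript were cut into 31-base words and looked up in all other genes. The share found elsewhere was 0% in Sprr1a and Crct1, 11.4% in Lce1g, 33.0% in Lce1h, 50.3% in Lce3c and 61.6% in Lce3d. The values of the Lce genes, most of all Lce3c and Lce3d, are uncertain to that degree.

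The 150 bases before the RefSeq start are shown for the 5 members with an entry in the RefSeq promoter sequences (GRCm38.p6), to let the neighbouring pairs be compared and to show where the motifs lie. For Sprr1a the RefSeq start differs from the gene position given above. Its window begins at 92485882, inside the gene as placed there, which reaches 92485895. The windows are chr3:92485882-92486031, chr3:92752339-92752488 and chr3:92765066-92765215 on the minus strand and chr3:92944336-92944485 and chr3:92957240-92957389 on the plus strand, each written in the direction of its gene. Capitals mark matches to the AP-1 motif TGANTCA, the antioxidant response element TGACNNNGC and the box ATAAAA on either strand.
Sprr1a: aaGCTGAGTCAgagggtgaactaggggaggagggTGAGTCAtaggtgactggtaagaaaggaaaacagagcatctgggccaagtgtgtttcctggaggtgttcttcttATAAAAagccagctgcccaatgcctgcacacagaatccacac
Lce1g: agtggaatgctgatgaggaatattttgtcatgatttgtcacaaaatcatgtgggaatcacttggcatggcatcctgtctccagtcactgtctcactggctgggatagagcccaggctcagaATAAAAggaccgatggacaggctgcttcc
Lce1h: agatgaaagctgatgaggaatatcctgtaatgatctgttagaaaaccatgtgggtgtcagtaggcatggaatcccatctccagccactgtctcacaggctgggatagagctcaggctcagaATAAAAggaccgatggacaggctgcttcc
Lce3c: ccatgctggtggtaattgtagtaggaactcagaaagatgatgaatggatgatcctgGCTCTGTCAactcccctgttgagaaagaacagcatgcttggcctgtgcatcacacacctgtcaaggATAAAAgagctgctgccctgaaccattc
Lce3d: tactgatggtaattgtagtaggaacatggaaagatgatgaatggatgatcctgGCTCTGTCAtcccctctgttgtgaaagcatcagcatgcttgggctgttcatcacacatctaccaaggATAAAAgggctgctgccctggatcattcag
In the 250 bases before the start, Lce1g and Lce1h were 84.5% identical and Lce3c and Lce3d 75.2%, so the pairs were alike upstream as well as in their transcripts. The letters ATAAAA were found in all 5 windows of 300 bases around the RefSeq start, against 18.5% of 32851 mouse promoters. They began 28 to 30 bases before that start in the Lce genes and 42 bases before it in Sprr1a. The AP-1 letters were found in 1 of 5, Sprr1a, at 146 and 116 bases before the start, against 7.81% of promoters, and the first of these overlaps a match to the antioxidant response element. That element was matched in 3 of 5 windows (Sprr1a, Lce3c and Lce3d; 12.4% of promoters). The KLF letters CACCC were matched in Sprr1a and Lce1h (57.5% of promoters), and the C/EBP letters TTGCNNAA (10.8%) and GRHL letters AACNNGTT (4.20%) in none. A match describes these letters only, and no factor's binding was measured.

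The deposited table held 25428 cells, 2140 to 6648 a sample, with total UMI counts of 96808998 to 122746184 and a median of 16453 to 47373 UMIs per cell. Of these cells, 23256 (91.5%) belonged to 4 fibroblast types (Fibroblast, Fibroblast 2, Fibroblast proliferating and Fibroblast-like), and 1492 were RPE cells. Replicate 3 of ko/ko was all of batch 2, so the batch could not be told apart from that sample. RPE cells numbered 56, 539 and 152 in the wt/wt samples and 68, 102 and 575 in the ko/ko samples. Dram2 itself was at 33.4, 39.6 and 38.1 CPM (UMIs scaled to the total of the sum) in wt/wt and at 30.7, 28.3 and 30.1 CPM in ko/ko, and its 3′ reads lie outside the deleted exon, so its level checks nothing about the labels. In the RPE cells Otx2 (74.1 CPM) and Krt18 (473 CPM) were present and Rpe65 was at 0.43 CPM, with 20 UMIs in all 25428 cells. In the cells named Pericyte, Kcnj8 and Higd1b were at 0 and the Schwann cell marker Sox10 (176 CPM) was detected, so that name is used here only as the deposited label. The RPE cells of wt/wt replicate 2 and ko/ko replicate 3, which were 539 and 575 of all 1492, stood apart from those of the other 4 samples. Their 7 RPE markers summed to 503 and 293 CPM against 867 to 1106 CPM, their corneal and conjunctival markers, of which only Pax6, also a gene of the optic cup, reached 1 CPM in RPE cells, to 49.3 and 109 CPM against 2.32 to 5.26 CPM, and their proliferation markers to 389 and 559 CPM against 85.5 to 172 CPM.

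Although the members were noted in fibroblasts, Lce1g and Lce1h had their highest levels in the RPE cells, in each of the 6 samples. Lce1g in RPE cells was at 860, 893 and 1548 CPM in the wt/wt samples and at 1976, 1909 and 827 CPM in the ko/ko samples. In all fibroblast types together it was at 11.1, 10.6 and 9.18 CPM in wt/wt and at 13.9, 17.5 and 8.68 CPM in ko/ko. The log2 ratio of RPE to fibroblasts, on log2(CPM + 1), was 6.64 ± 0.44 (SD, n = 6 samples). The ranges of the cell groups did not overlap, and the RPE cells stood far above every fibroblast value. Lce1h was at 120, 202 and 278 CPM (wt/wt) and 413, 235 and 323 CPM (ko/ko) in RPE cells. In the fibroblasts it was at 23.5, 12.3 and 15.2 CPM (wt/wt) and 22.0, 20.9 and 12.5 CPM (ko/ko), so that the log2 ratio was 3.75 ± 0.80 (SD, n = 6) with all samples again on the same side. A UMI count is a count of molecules and does not depend on transcript length, so levels of different members can be set side by side, within the limits of shared sequence given above.

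After RPE, the order of Lce1g levels (mean over samples) was Fibroblast-like at 62.4 ± 35.9 CPM, Fibroblast at 14.3 ± 5.10, Fibroblast 2 at 8.09 ± 8.29, Fibroblast proliferating at 7.23 ± 2.30, Endothelial at 3.74 ± 3.86, Pericyte at 2.95 ± 2.76 (SD, n = 6) and Myeloid at 2.54 ± 2.53 (SD, n = 4 samples with 10 or more cells). From Fibroblast downwards neighbours in that order did not differ beyond their SD. For Lce1h the same types stood at 262 ± 101 CPM in RPE, 61.7 ± 34.2 in Fibroblast-like, 22.6 ± 8.45 in Fibroblast and 12.1 ± 3.56 in Fibroblast proliferating (SD, n = 6), with lower values in Fibroblast 2 (4.29 ± 4.07), Endothelial (3.03 ± 4.64) and Pericyte (1.02 ± 1.24). The Myeloid value of 31.7 ± 61.0 CPM (SD, n = 4) spread too widely to be placed. Fibroblast-like cells held few UMIs, with a median of 4825 per cell.

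Crct1 was the most abundant member in fibroblasts and was present in every fibroblast type. In fibroblasts together it was at 159, 92.7 and 170 CPM in wt/wt and 201, 260 and 117 CPM in ko/ko. In RPE cells it varied from 75.2 to 1055 CPM, with 78.5, 488 and 75.2 CPM in wt/wt and 172, 139 and 1055 CPM in ko/ko, and only 2 of 6 samples were higher in RPE than in fibroblasts. The exceptions were the samples wt/wt replicate 2 and ko/ko replicate 3, whose RPE cells also stood apart in their markers as given above, and the part of those cells in the level was not tested. The means were 335 ± 385 CPM in RPE, 216 ± 68.7 in Fibroblast-like, 201 ± 72.3 in Fibroblast and 194 ± 111 in Fibroblast 2, which did not differ beyond their SD, and 79.8 ± 42.9 in Fibroblast proliferating (SD, n = 6). Endothelial (26.5 ± 39.1 CPM) and Pericyte (5.95 ± 3.93 CPM) were lowest.

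Sprr1a, Lce3c and Lce3d were rarer. Sprr1a in fibroblasts was at 8.72, 8.34 and 5.24 CPM in wt/wt and at 1.81, 3.99 and 7.59 CPM in ko/ko. Its mean was 33.7 ± 50.2 CPM in Fibroblast-like, a spread set by 134.6 CPM in ko/ko replicate 3, and 6.98 ± 3.37 in Fibroblast, 4.15 ± 2.25 in Fibroblast proliferating, 3.71 ± 2.81 in RPE and 1.84 ± 2.27 in Fibroblast 2 (SD, n = 6). These neighbours did not differ beyond their SD. Endothelial cells held no Sprr1a UMI, which allows up to 0.835 CPM. Lce3d had its highest mean in the Fibroblast 2 type, where the samples held 17.2, 33.5 and 7.49 CPM (wt/wt) and 32.5, 31.4 and 14.7 CPM (ko/ko), with a mean of 22.8 ± 11.1 CPM against 3.53 ± 3.09 in Fibroblast and 0.0919 ± 0.186 in RPE (SD, n = 6). In wt/wt replicate 2 a single Fibroblast 2 cell held 204 of the 226 UMIs. Lce3c in fibroblasts was at 0.337, 4.11 and 0.120 CPM (wt/wt) and 0.194, 6.32 and 0.130 CPM (ko/ko). It was above 1 CPM in only 1 sample of each genotype, replicate 2 in both.

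**Figure D1:**
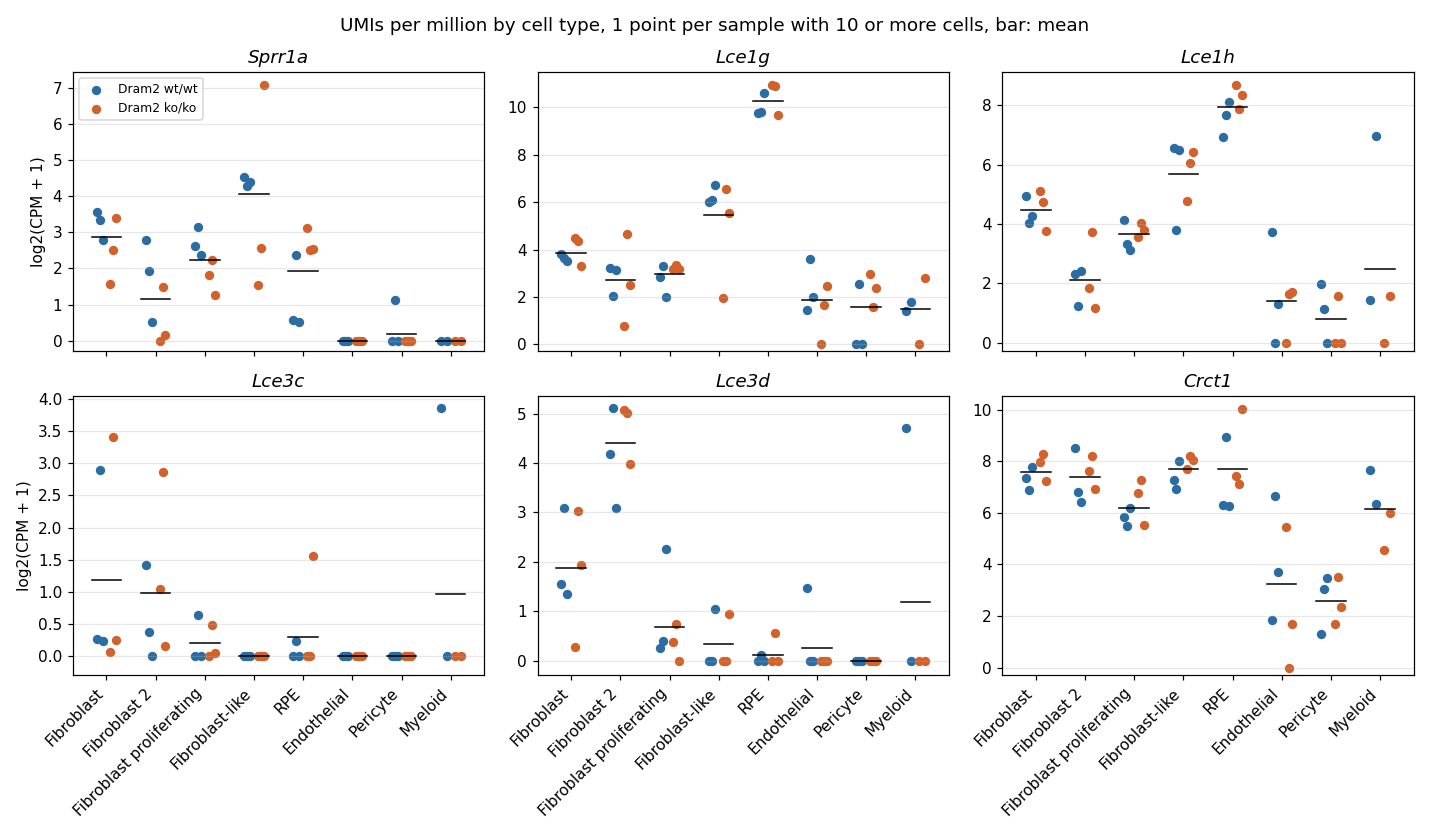
Level of each member in each deposited cell type, as log2(CPM + 1) on the vertical axis, with 1 point per sample with 10 or more cells of the type (wt/wt and ko/ko in different colours) and a bar at the mean. Lce1g and Lce1h stood highest in RPE in all 6 samples, Lce3d in Fibroblast 2, and Crct1 was spread over fibroblast types and RPE.

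Sums hide how few cells carried these RNAs. In a sum over cells, fewer positive cells and less RNA per cell cannot be told apart, so the cells were counted as well. Of 23256 fibroblast cells, 26.4% held a Crct1 UMI, 6.97% Lce1g, 6.49% Lce1h, 1.81% Sprr1a, 0.817% Lce3d and 0.301% Lce3c, at a median depth of 23662 UMIs. Free RNA in droplets can give such single UMIs, so the deposited Endothelial and Pericyte cells, in which these genes have no known role, serve as a background. After each cell was thinned to 8000 UMIs, Crct1 was seen in 17.0% of Fibroblast cells and 26.1% of RPE cells, against 3.51% of Endothelial and 4.31% of Pericyte cells. Before thinning the RPE share was 35.1%, the Endothelial share 5.21% and the Pericyte share 7.14%, at median depths of 22905.5, 9262.5 and 13598 UMIs. Myeloid cells were left out of this background. Their share of cells at 10 or more Crct1 UMIs, given below, was not under that of the fibroblasts. The Crct1 contrast therefore holds against Endothelial and Pericyte cells only. For Lce1g the thinned share was 55.0% in RPE (65.0% before thinning) and 3.19% in Fibroblast, close to 1.75% in Endothelial (3.13% before) and 2.35% in Pericyte (3.25% before). A Lce1g UMI in a fibroblast is therefore near background as a share of cells, and the counts per cell carry more than the share does.

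Counts per cell were extremely uneven. In fibroblasts Crct1 had 103864 UMIs in 6146 cells, and 149 cells held 50% of them. Lce1h had 11014 UMIs in 1509 cells (85 cells held 50%), Lce1g 7314 UMIs in 1621 cells (63 cells), and Sprr1a 3692 UMIs in 421 cells (27 cells). For Lce3d 8 cells, and for Lce3c 2 cells, held 50% of 3063 and 1169 UMIs. Thus the fibroblast levels rested on few cells for every member, and on a handful for Lce3c and Lce3d.

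A cell was counted as high for a member at 10 or more UMIs. There were 1311 fibroblasts high for Crct1, which held 89.8% of its fibroblast UMIs, 248 for Lce1h (75.5%), 142 for Lce1g (66.3%), 83 for Sprr1a (76.7%), 40 for Lce3d (87.5%) and 8 for Lce3c (91.4%). Those high for Crct1 were 5.64% of the fibroblasts, 2 of 288 Endothelial cells (0.694%, with up to 41 UMIs), 6 of 84 Myeloid cells (7.14%) and 0 of 308 Pericyte cells, which allows a share of up to 0.974%. The richest single fibroblasts held 2250 UMIs of Crct1 (a wt/wt replicate 3 cell with 49862 UMIs), 559 of Lce3c, 386 of Lce3d, 300 of Lce1h, 293 of Sprr1a and 213 of Lce1g. In RPE cells, 514 of 1492 were high for Lce1g, with up to 964 UMIs, 234 for Lce1h and 182 for Crct1. RPE Crct1 was the more concentrated of these, with 14 cells holding 50% of its 24359 UMIs and 1 cell of ko/ko replicate 3 holding 2434.

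**Figure D2:**
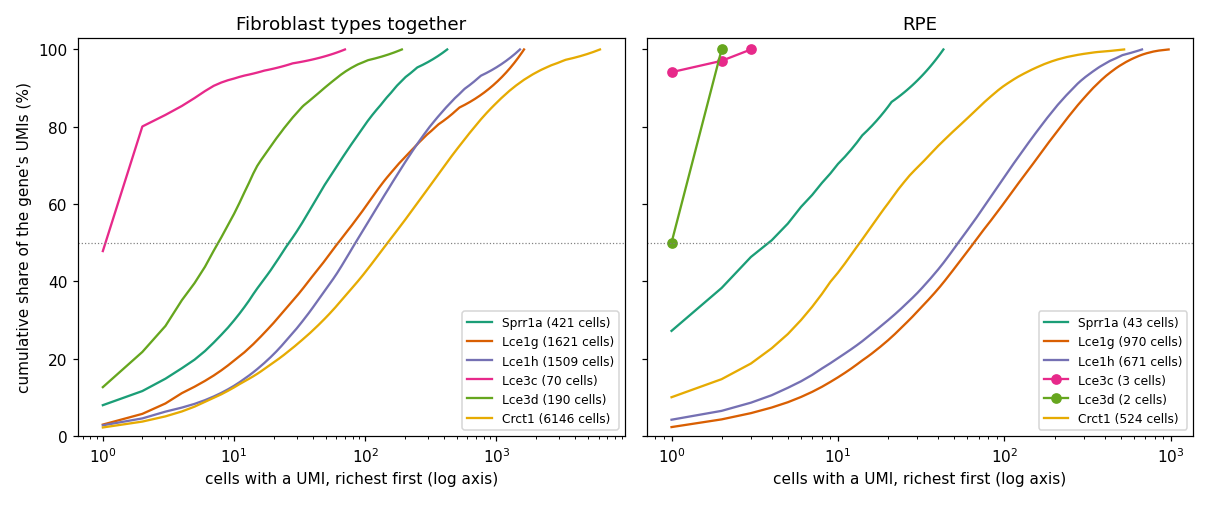
Cumulative percent of a member's UMIs (vertical axis) against the number of cells taken from the richest down (horizontal axis, log scale), for fibroblast types together and for RPE. The curves rose fastest for Lce3c and Lce3d in fibroblasts, where 2 and 8 cells reached 50%, and slowest for Crct1, where 149 cells did.

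Fibroblasts high for a member were deeper than those without it. The median was 34238 UMIs in cells high for Crct1 against 21638.5 in cells with none, and 39596 against 23492 for Sprr1a. Part of any share of high cells can follow depth, and that part was not tested.

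By sub-cluster of the fibroblasts, Lce3d was higher in sub-cluster 3 than in sub-cluster 1 in 5 of 6 samples. In sub-cluster 3 it was at 16.0, 2.60 and 13.7 CPM in wt/wt and at 26.1, 29.4 and 13.2 CPM in ko/ko. In sub-cluster 1, the largest with 9965 cells, it was at 0.997, 13.1 and 0.577 CPM in wt/wt and 0.200, 6.37 and 2.51 CPM in ko/ko, so that wt/wt replicate 2 went the other way. In that sample 1 cell held 386 of the 649 UMIs of sub-cluster 1. Without the richest cell of each sample and sub-cluster the mean log2 ratio was 2.53, with 5 of 6 samples higher. With all cells it was 2.15 ± 2.22 (SD, n = 6), about as large as its spread. Of the 40 cells high for Lce3d, 67.5% were in sub-cluster 3, against 16.0% of fibroblasts with no Lce3d UMI. Sub-cluster 1 held 67.3% of cells high for Lce1h, against 42.2% of those with none. It held 56.7% of cells high for Crct1, against 40.3% of those with none. For Crct1 the shares in sub-cluster 3 were 19.5% and 16.9%, so the Crct1 share in sub-cluster 1 in large part follows the size of that sub-cluster. Lce3c, which shares much of its 3′ sequence with Lce3d, had a log2 ratio of −0.27 ± 1.56 (SD, n = 6), higher in sub-cluster 3 in 3 of 6 samples. This ratio rests on single cells of sub-cluster 1, which held 377 of 384 UMIs in wt/wt replicate 2 and 559 of 570 UMIs in ko/ko replicate 2, and it ranged from −0.51 to 0.28 with 1 sample left out. Without the richest cell of each sample and sub-cluster its sign turned, to 0.24, with 2 of 6 samples higher in sub-cluster 3. Of the 8 cells high for Lce3c, 62.5% were in sub-cluster 3.

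Sub-cluster 5, with 812 cells and a median of 5856 UMIs, had the highest CPM of several members. Lce1g was there at 67.8, 73.8 and 120 CPM in wt/wt and at 15.4, 101 and 53.9 CPM in ko/ko, above sub-cluster 1 in 5 of 6 samples (log2 ratio 2.14 ± 1.26, SD, n = 6). In ko/ko replicate 1 a single cell held 26 of its 29 UMIs, and without the richest cell of each sample and sub-cluster the ratio was 1.14, with 5 of 6 samples higher. Sprr1a was above sub-cluster 1 in 6 of 6 samples, at 23.9, 59.4 and 23.8 CPM against 14.4, 9.34 and 6.80 CPM in wt/wt and 2.66, 5.50 and 172 CPM against 2.23, 5.31 and 12.0 CPM in ko/ko. The first 2 ko/ko samples differed little and rest on 5 and 3 UMIs in sub-cluster 5, of which the last is the floor of 3 counts, and the ratio of 1.48 ± 1.46 (SD, n = 6) was near its spread. Without the richest cells it was 1.03, with 5 of 6 samples higher. For Crct1 the ratio was 0.58 ± 0.49 with 5 of 6 samples higher, and it was 0.13 without the richest cells, with 4 of 6 higher. For Lce1h it was 1.14 ± 1.21 (SD, n = 6) with all cells and 0.27 without the richest.

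**Figure D3:**
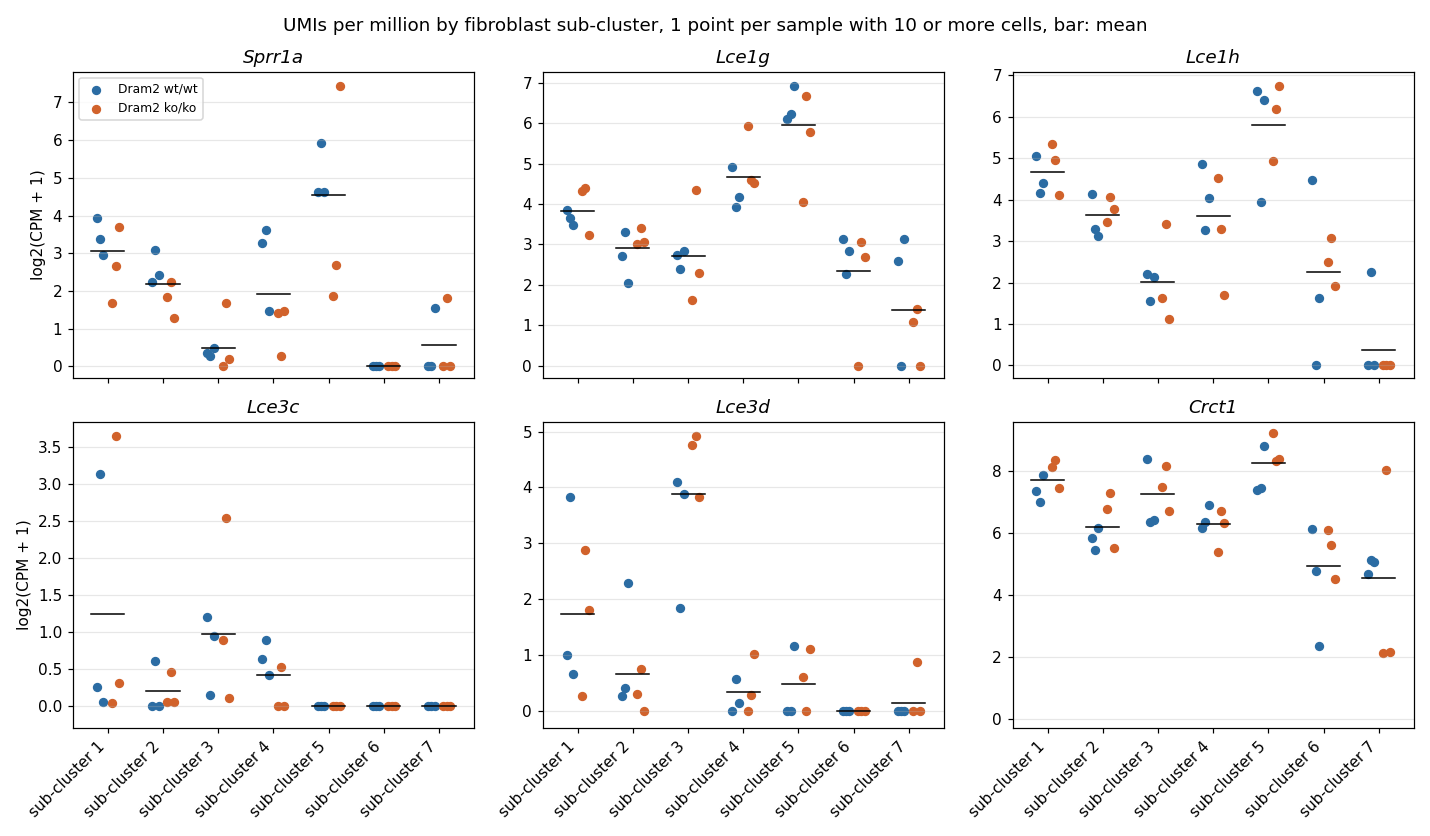
Level of each member in fibroblast sub-clusters 1 to 7, as log2(CPM + 1), with 1 point per sample with 10 or more cells and a bar at the mean. Lce3d was higher in sub-cluster 3 than in sub-cluster 1 in 5 of 6 samples, and Sprr1a was higher in sub-cluster 5 than in sub-cluster 1 in 6 of 6, or in 5 of 6 without the richest cell of each sample and sub-cluster.

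Some members occurred together in the same cells. Of 23256 fibroblasts, 1348 were high for 1 member, 169 for 2, 34 for 3 and 11 for 4, and none was high for 5 or 6. Among cells high for Lce1g, 39.4% were also high for Lce1h, against 0.831% of the other fibroblasts, and the share was above that of the rest in 6 of 6 samples. Among cells high for Sprr1a, 69.9% were high for Crct1 against 5.41% of the others, again in 6 of 6 samples. Of the 8 cells high for Lce3c, 75% were high for Lce3d, the neighbour with which Lce3c shares sequence, so this share could hold reads that were counted for the wrong copy. Of the 40 cells high for Lce3d, 67.5% were high for Crct1, 2.5% (1 cell) for Lce1g and none for Lce1h. Among the other fibroblasts 0.607% were high for Lce1g and 1.07% for Lce1h, so 40 cells are too few to tell these shares apart. These cells came from the same libraries and the high ones were deeper, so the shares are given as a description.

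Single cells show the same combinations. A ko/ko replicate 3 fibroblast with 48864 UMIs held 293 UMIs of Sprr1a, 193 of Lce1h, 74 of Lce1g and 1580 of Crct1. A ko/ko replicate 2 fibroblast with 22247 UMIs held 559 of Lce3c, 279 of Lce3d, 75 of Sprr1a and 1295 of Crct1, and a wt/wt replicate 2 fibroblast with 24486 UMIs held 377 of Lce3c and 386 of Lce3d. Neighbouring genes were also seen apart: a ko/ko replicate 1 fibroblast with 112063 UMIs held 300 Lce1h UMIs and 1 of Lce1g. In RPE cells 79.9% of those high for Lce1h were high for Lce1g, whereas 31.9% of those high for Crct1 were high for Lce1g against 34.8% of the rest.

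**Figure D4:**
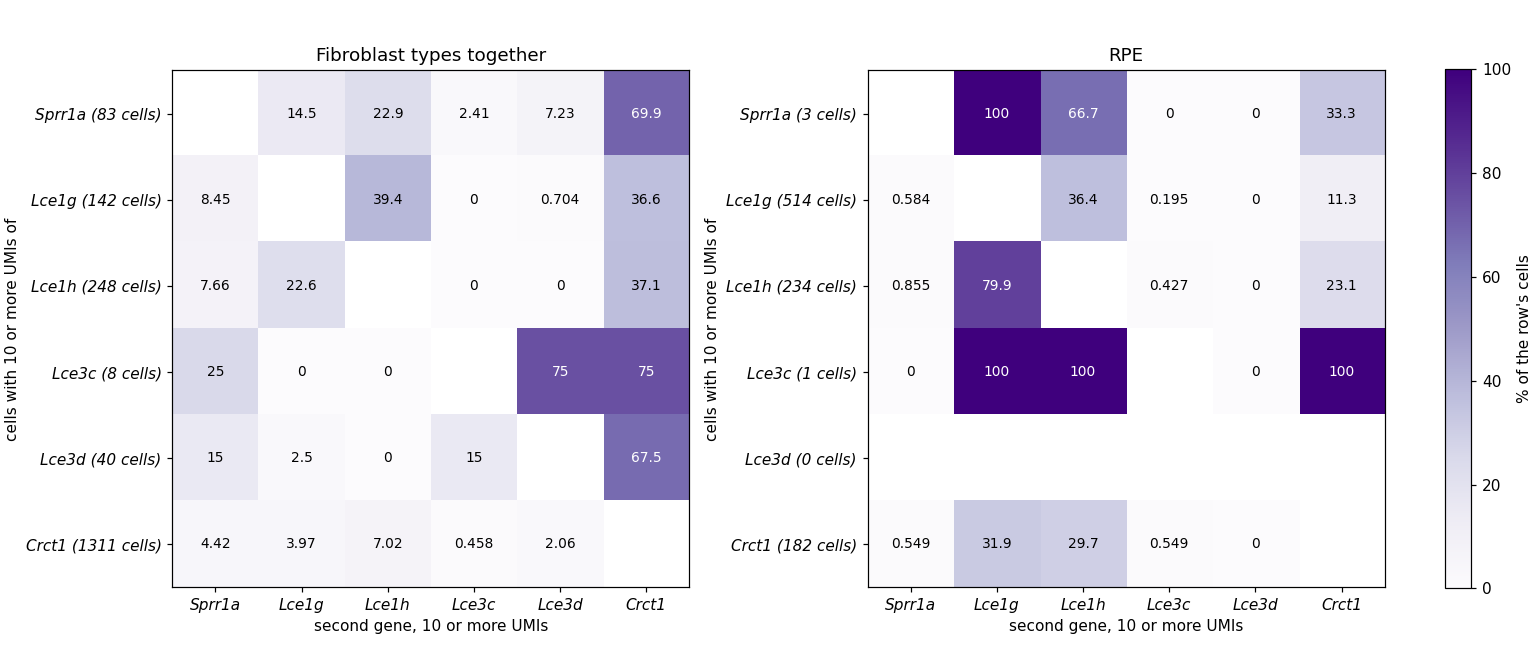
Percent of the cells high (10 or more UMIs) for the row's gene that were also high for the column's gene, in fibroblast types together and in RPE. In fibroblasts the highest values were Lce3c with Lce3d and with Crct1 (75% each, 6 of 8 cells), Sprr1a with Crct1 (69.9%) and Lce3d with Crct1 (67.5%).

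Basal keratins were at 0 in the fibroblasts high for a member. In the 1562 fibroblasts high for any member (median 34164.5 UMIs), Krt5 and Krt14 had no UMI and Trp63, the master regulator of stratified epithelium, had 2 UMIs. Of 18 keratinocyte markers 13 had a UMI, and their summed level was 439 CPM against 328 CPM in the other fibroblasts, most of it Perp, a desmosome gene with 383 against 286 CPM. Fibroblast markers summed to 4325 CPM against 5266, and Dcn, the fibroblast proteoglycan decorin, was at 3771 CPM in the cells high for Lce3d. RPE markers were at 6.98 against 6.87 CPM, corneal and conjunctival markers at 1.07 against 0.762, endothelial markers at 25.0 against 22.2, pericyte markers at 61.4 against 95.9 and myeloid markers at 10.3 against 7.22 CPM. The keratinocyte markers summed to 586 CPM in the 83 fibroblasts high for Sprr1a and to 723 CPM in the 8 high for Lce3c. The fibroblast markers summed to 3683 CPM in those high for Sprr1a, 3294 for Lce1g, 3234 for Lce1h and 4490 for Crct1. Only those high for Lce3c (6299 CPM) and Lce3d (6603 CPM) lay above the 5266 CPM of the other fibroblasts. Most of the 1562 cells were high for Crct1. In the 142 fibroblasts high for Lce1g the RPE markers were at 16.4 CPM, and in the 83 high for Sprr1a the myeloid markers were at 32.0 CPM, and the part of such RNA in the members' counts was not tested. Within the RPE cells, the 7 RPE markers, which were mostly Krt18, summed higher in those high for Lce1g than in those with none in 4 of 6 samples. The sums were 615 against 383 CPM in wt/wt replicate 2 and 539 against 124 CPM in ko/ko replicate 3, and 777 against 1504 CPM in wt/wt replicate 1. Pax6 was higher in the cells high for Lce1g in 1 of 6 samples, and in the samples that held most of it the values were 23.7 against 106 CPM (wt/wt replicate 2) and 45.3 against 174 CPM (ko/ko replicate 3).

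The other envelope genes of the epidermal differentiation complex were mostly low. The complex holds 75 protein-coding genes from 90511034 to 93564643 on chromosome 3, of which 12 had no UMI in all cells and 36 had under 50. Among its 37 Sprr, Lce and Crct1 genes, the 6 members, which were chosen by their counts, held 96.7% of the UMIs. Many of the other Lce genes share 3′ sequence with the members. How unique the ends of these other genes are was not examined, so their low counts are uncertain. Of 43 other envelope genes of the complex, 4 reached 1 CPM in fibroblasts, and these were Tchh (trichohyalin) at 5.40, Lor (loricrin) at 5.15, Lce1l at 5.06 and Ivl (involucrin) at 2.32 CPM. In RPE cells 13 of the 43 reached 1 CPM and 3 reached 10, namely Ivl at 113, Lce1l at 49.3 and Lor at 10.9 CPM. Summed, the 8 fibroblasts high for Lce3c held the neighbours Lce3f (517 CPM) and Lce3a (85.5 CPM), which share sequence with it. They also held Sprr1a (610 CPM) and Crct1 (11211 CPM). The cells ranked 1 and 2 by Lce3c held 75 and 82 Sprr1a UMIs, and those ranked 3 to 5 held none, so Sprr1a was not found in all of these cells.

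The S100 genes that flank the complex were higher. Of 13 measured, 10 were at 1 CPM or more in fibroblasts and 10 in RPE, with S100a6 at 22847 CPM in fibroblasts.

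**Figure D5:**
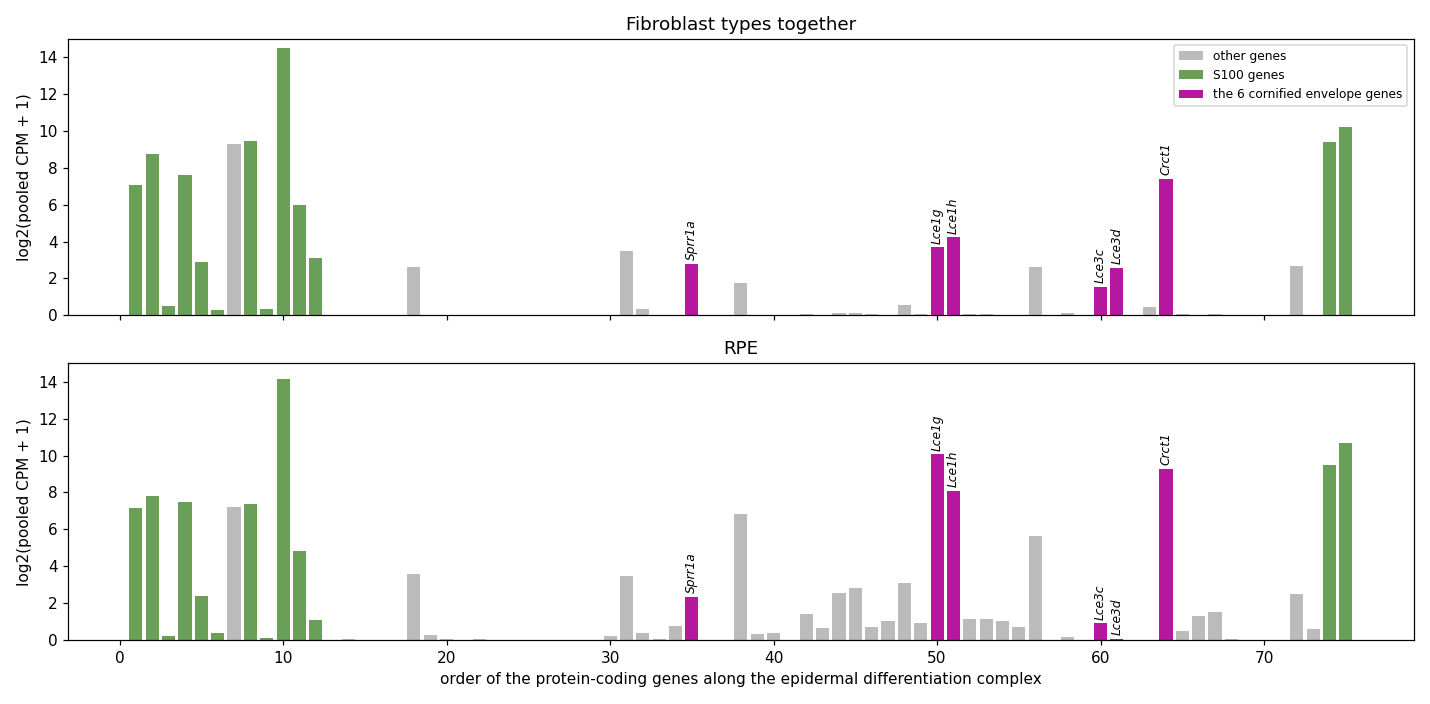
Level of the 75 protein-coding genes of the epidermal differentiation complex in gene order along the chromosome, as log2(pooled CPM + 1), in fibroblast types together and in RPE, with S100 genes in green and the 6 members in magenta. Between the tall S100 bars, members such as Crct1 (168 CPM in fibroblasts and 614 CPM in RPE, pooled over samples of which 2 of 6 were higher in RPE) and Lce1g (11.8 and 1073 CPM) stood among genes close to 0.

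Fewer than 6 of the listed genes that cross-link or scaffold an envelope were present at 1 CPM. Of 13 cross-linking and scaffold genes, 5 reached 1 CPM in fibroblasts. Tgm1, the main keratinocyte transglutaminase, was at 0.22 CPM and the ubiquitous Tgm2 at 50.4 CPM, while Anxa1 was at 1336, Jup (plakoglobin) at 46.3 and Cst6 (cystatin E/M) at 23.2 CPM. Of 20 terminal differentiation and AP-1 transcription factors, 16 were at 1 CPM or more, including Cebpb at 606 CPM (1666 CPM in sub-cluster 3), Fosl1 at 83.8 and Klf4 at 70.2 CPM. All 10 NRF2 and target genes, which respond to oxidative stress, were at 1 CPM or more, led by Hmox1 (heme oxygenase 1) at 1870 CPM in fibroblasts and 3363 CPM in RPE.

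Genes that accompanied the members were sought by comparing the 3295 fibroblasts with 3 or more member UMIs with the 15337 without any, among 6529 genes, ranked by the lowest ratio over samples. The first 10 were Lce1l (21.5 against 1.08 CPM), the stromelysin Mmp10 (64.0 against 19.4), the collagenase Mmp13 (108 against 25.5), Bcl2l15 (38.5 against 14.1), Gm6093, Serpinb2 (204 against 97.0), Gm43064, Hmox1 (2986 against 1537), Nrk and the cell cycle inhibitor Cdkn1c (59.4 against 28.5 CPM). Igfbp5 (125 against 523 CPM), Rgs5 (23.0 against 59.4), Spon2 (34.5 against 88.0), Nnat (29.5 against 76.7) and the matrix gene Cthrc1 (187 against 390) stood at the other end. The cells were split by the members' own counts, so these ratios carry no test, and the richer cells may also be the deeper ones. Crct1 held 103864 of the 130116 member UMIs in fibroblasts, so this split weighs Crct1 most.

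Cells high for a member were also set against fibroblasts with none of it, and the leading genes of some members were shared, with no test of a difference between members. The cells high for different members were in part the same cells, as given above, so a shared gene is not a separate observation for each member. Gm43154 was among the first 5 genes for Sprr1a (40.2 against 6.64 CPM), Lce1h (36.8 against 6.03) and Crct1 (24.6 against 4.29). Cells high for Lce1h held more of Xirp2 (93.0 against 1.86 CPM), a muscle actin-binding protein, and of Igfbp3 (24.5 against 3.43). Cells high for Lce1g also held Xirp2 (52.0 against 2.74) and Ivl (32.6 against 1.55). Cells high for Lce3d held Mmp13 (1532 against 39.7 CPM), Mmp3 (703 against 13.3), the cytokine Lif (244 against 52.2) and Lce3a (27.1 against 0.0245). Cells high for Sprr1a held Mmp10 (233 against 27.9) and Hmox1 (3623 against 1847), and those high for Crct1 also held Mmp10 (102 against 19.8), with Mmp13 (184 against 28.1) and Lgals3 (317 against 116 CPM).

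Over 46 sums of 1 sub-cluster in 1 sample, with 10500 genes of 5 CPM or more, the genes whose log2(CPM + 1) was most like that of the summed members were Bcl2l15 (r = 0.76), Gpatch4 (0.74), Gm17222 (0.74), 1 gene without a symbol (0.74), S100a7a (0.72), Cdkn1c (0.72), Prdx6 (0.72), Cib2 (0.70), S100a16 (0.70) and Gm7380 (0.69). S100a7a and S100a16 lie in the same complex. Crct1 held 103864 of the 130116 member UMIs in fibroblasts, so the summed members mostly follow Crct1. Taken alone, Crct1 was most like Gpatch4 (r = 0.79), Sprr1a and Lce1g like Lce1h (0.71 each) and Lce1h like S100a7a (0.73). Lce3d was most like Tnfsf11 (0.73) and Lce3c like Spryd7 (0.40). The sums share 6 libraries and differ in depth, so r is a description.

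Between genotypes, voom-limma over all genes called no member in any of the 15 comparisons in which one could be tested. These were the whole samples, the fibroblasts together, the single types and the sub-clusters, and 3 further comparisons (Endothelial, Pericyte and sub-cluster 8) left no member after the filter on low counts. In the whole samples Crct1 was at 154, 133 and 165 CPM in wt/wt and at 200, 252 and 256 CPM in ko/ko. All ko/ko samples lay above all wt/wt samples. With 3 samples a genotype, such a separation has an exact permutation p no smaller than 0.1. The share of all genes that separate in this way is not given here, so this and the separations below are descriptions only. The log2 difference of Crct1 was 0.67 (SE 0.13, voom-limma adjusted p = 0.119). DESeq2 called it with all samples (adjusted p = 0.00135, with 1.67% of all genes called), and voom-limma called it without ko/ko replicate 1 (0.78, adjusted p = 0.0337, with 1.05% called). Without ko/ko replicate 3, which leaves batch 1 alone, the difference was 0.61 (voom-limma adjusted p = 0.124). Of 22580 genes tested in the whole samples, 0% were called, with 1583 at an unadjusted p under 0.05. In the fibroblasts the genotypes overlapped (values given above), with a Crct1 difference of 0.44 (SE 0.32, voom-limma adjusted p = 0.906). In the whole samples the high ko/ko replicate 3 value moves with its 575 RPE cells at 1055 CPM, and the part of these cells in the difference was not tested.

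Sprr1a went the other way in the fibroblasts. The wt/wt samples held 8.72, 8.34 and 5.24 CPM and the ko/ko samples 1.81, 3.99 and 7.59 CPM, which overlapped through ko/ko replicate 3, where 1 cell held 293 of 700 UMIs. Without the richest cell of each sample the values were 7.49, 7.51 and 4.72 CPM in wt/wt and 1.39, 3.29 and 4.42 CPM in ko/ko, which did not overlap. With all cells the log2 difference was −0.92 (SE 0.42, voom-limma adjusted p = 0.729). Without ko/ko replicate 3 it was −1.40 (adjusted p = 0.0869), and over all samples left out in turn it ranged from −1.40 to −0.38. In Fibroblast proliferating cells Sprr1a was at 5.18, 7.88 and 4.21 CPM in wt/wt and at 2.52, 3.69 and 1.39 CPM in ko/ko, without overlap, with a log2 difference of −1.22 (SE 0.34, voom-limma adjusted p = 0.232). DESeq2 called this difference (adjusted p = 0.022, with 1.77% of all genes called). In RPE cells Sprr1a was higher in all ko/ko samples, at 0.497, 4.19 and 0.435 CPM in wt/wt and 7.72, 4.64 and 4.77 CPM in ko/ko. The wt/wt values of replicates 1 and 3 rest on 1 and 2 UMIs, under the floor of 3 counts. The wt/wt replicate 2 value lay close to 2 of the ko/ko values. The share of RPE cells with a Sprr1a UMI was 1.79%, 3.15% and 1.32% in wt/wt and 4.41%, 1.96% and 3.13% in ko/ko, which overlapped. The log2 difference was 1.66 (SE 0.69, voom-limma adjusted p = 1.00) on 162 UMIs in 43 cells, and it ranged from 0.66 to 3.00 with 1 sample left out.

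The remaining members were not called either. In fibroblasts the log2 difference was 0.34 for Lce1g (SE 0.24, voom-limma adjusted p = 0.903), 0.14 for Lce1h, 0.47 for Lce3d and 0.13 for Lce3c (SE 1.59). Their median over the 6 members was 0.24, against 0.00 over all genes. In RPE cells 4 members were tested, and Lce1g differed by 0.52, Lce1h by 0.75 (SE 0.32) and Crct1 by 1.01 (SE 0.92). All 4 were higher in ko/ko, and Sprr1a and Lce1h had an unadjusted p under 0.05, as did 4.65% of all genes tested there. In the same fit all 5 RPE markers tested were lower in ko/ko (median −0.65) and 7 of 8 fibroblast markers were lower (median −0.77), none called, and their part in the members' values was not tested. With 1 sample left out the RPE difference of Crct1 ranged from 0.18 to 1.92. The members summed to 1059, 1587 and 1902 CPM in wt/wt and 2568, 2288 and 2211 CPM in ko/ko RPE cells, without overlap. In the whole samples the sums were 216, 282 and 264 CPM against 313, 349 and 457 CPM, again without overlap, whereas in the fibroblasts the ranges of 135 to 206 CPM and 149 to 317 CPM overlapped. The 457 CPM of ko/ko replicate 3 moves with its 575 RPE cells at 2211 CPM, while its fibroblasts were at 149 CPM. The part of the RPE cells in this separation was not tested. Without ko/ko replicate 3, that is within batch 1, 2 members were called. Lce1g in Fibroblast cells rose by 0.82 (voom-limma adjusted p = 0.0254, against 0.40 and adjusted p = 0.926 with all 6 samples) and Crct1 in Fibroblast proliferating cells rose by 1.20 (adjusted p = 0.0202, against 0.68 and adjusted p = 0.926). The same 2 genes were called without this sample in sub-cluster 1 (Lce1g, 0.76, adjusted p = 0.0374) and in sub-cluster 2 (Crct1, 1.23, adjusted p = 0.0195). Without it 0.734% of all genes were called in Fibroblast, 1.21% in Fibroblast proliferating, 0.82% in sub-cluster 1 and 1.08% in sub-cluster 2. Among the alternatives run, these 4 calls appeared only when ko/ko replicate 3 was left out or the batch entered as a covariate, and batch 2 had no other sample. For Crct1, a single cell of ko/ko replicate 1 held 1285 of its 2862 UMIs in Fibroblast proliferating. In sub-cluster 2 of that sample a single cell likewise held 1285 of 2821 UMIs. The part of such cells in the Crct1 calls was not tested. With all 6 samples the Lce1g difference was negative in Fibroblast-like (−2.33, SE 0.82, voom-limma adjusted p = 0.893), sub-cluster 5 (−1.36, SE 0.49, adjusted p = 0.471) and Fibroblast 2 (−0.54, SE 1.04). It was positive in the other groups tested. Of the thinned fibroblasts, 3.24% ± 0.85 in wt/wt and 2.44% ± 0.25 in ko/ko held a Lce1g UMI (SD, n = 3, two-sided exact permutation p = 0.2). The shares at 10 or more Lce1g UMIs went the other way, with 0.471% ± 0.15 in wt/wt and 0.843% ± 0.39 in ko/ko (exact permutation p = 0.2). Without wt/wt replicate 3, voom-limma called Sprr1a in sub-cluster 4, with 0.204% of all genes called. There 1 cell held all 47 Sprr1a UMIs of wt/wt replicate 1, and 1 cell held 45 of 92 in wt/wt replicate 2. The ko/ko samples held 8, 1 and 12 UMIs. Crct1 in Myeloid differed by −1.92 without wt/wt replicate 3, which leaves 1 wt/wt sample.

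With no sample left out beyond those with under 10 cells, the share of genes that voom-limma called was under 1% in every comparison. Fibroblast types together had 0.00911% of 21958 genes called and the Fibroblast type 0.00503% of 19886. The share was 0.222% for Fibroblast 2 (14882 genes) and 0.624% for Fibroblast proliferating (18113 genes), and 0% for both Fibroblast-like (7218 genes) and RPE (12333 genes). By sub-cluster the share was 0.32% of 19049 genes in sub-cluster 1, 0.55% of 18010 in sub-cluster 2, 0.00634% of 15785 in sub-cluster 3, 0.722% of 13711 in sub-cluster 4, 0% of 6214 in sub-cluster 5, 0% of 6218 in sub-cluster 6 and 0.402% of 7711 in sub-cluster 7, and it was 0.0296% of 6747 in Myeloid, fitted on 4 samples. In these 15 comparisons 1 to 6 members passed the filter, 0 to 2 members had an unadjusted p under 0.05, edgeR's quasi-likelihood test called 0 and DESeq2 called 0 or 1. In the fits of whole samples, fibroblasts and RPE no gene of the other lists was called either. For example, 0 of 14 tested envelope relatives, 0 of 12 S100 genes and 0 of 10 NRF2 genes were called in the whole samples, with 0, 3 and 0 at an unadjusted p under 0.05.

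The mean share of fibroblasts with a member UMI was nearly equal in the genotypes. After thinning to 8000 UMIs, which left out 1464 wt/wt and 1392 ko/ko cells, 20.6%, 20.1% and 18.9% of wt/wt fibroblasts and 19.9%, 23.7% and 16.0% of ko/ko fibroblasts held a member UMI. The means were 19.9% ± 0.89 and 19.9% ± 3.84 (SD, n = 3; two-sided exact permutation p = 1). For Sprr1a alone the share was 1.45% ± 0.36 among wt/wt and 0.755% ± 0.13 among ko/ko fibroblasts (SD, n = 3; exact permutation p = 0.1), and the Lce3d share was 0.344% against 0.511% (exact p = 0.1). No smaller p can be had with 3 samples a genotype, so no share could pass 0.05. At 10 or more UMIs of any member the shares were 6.45% ± 1.71 and 7.39% ± 2.25 (SD, n = 3; exact permutation p = 0.6).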

How the data were processed

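RNA of 6 samples of cultured RPE and choroid cells was counted by 10x Genomics 3′ sequencing. The authors deposited raw UMI counts per gene and cell, made with Cell Ranger 3.1.0 against GRCm38 with exons only, per the submitters' processing notes and the study's methods, and a table with the sample, genotype, cell type and fibroblast sub-cluster of each cell. Filters on cells and any doublet removal are not given in the sources used here. No doublets were removed, and the cell names carry no barcodes, so barcodes shared between libraries could not be counted. Dropping the 469 cells (1.84%) below 500 genes or above 20% mitochondrial UMIs was 1 of the alternatives. All 6 samples had a group in the labels, and no column of samples was left unused.

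Counts were summed per sample over all cells, fibroblast types, each cell type and each sub-cluster (samples with 10 or more cells). CPM is a gene's share of the UMIs of its sum, in the usual scale. Ratios used a pseudocount of 1 CPM. After filterByExpr and TMM scaling in edgeR 4.0.16, the genotypes were compared by voom-limma with no covariate (limma version 3.58.1 in R 4.3.3). Benjamini-Hochberg adjustment ran over all genes of a fit, and adjusted p under 0.05 counted as a call. DESeq2 1.42.0, edgeR's quasi-likelihood test, other scalings and filters, the batch, a replicate block and leaving out each sample were alternatives. Shares were tested by an exact permutation test (scipy 1.17.1), with cells thinned to 8000 UMIs. Bounds at 0 are 3 counts over the group, and cover counting error only. The scripts were tested on simulated data.

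Same-numbered samples deviated from their group means with correlations of 0.09, −0.36 and 0.13, so the replicate numbers do not pair the samples. The members, the gene lists and the tests were chosen with earlier results of these data known. Genes outside the members were named where highest or called in a list, as the 10 with the highest r to the summed members, or as the 10 with the largest minimum ratio over samples between member-rich and member-free fibroblasts. Lowest genes of that ratio, companions of single members and single cells were chosen after their values were seen. Sequences are from RefSeq (GRCm38.p6) and gene positions from the GRCm38 annotation, counted from 1.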

Additional observations from a re-analysis of the deposited data

Results flagged for a closer look

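The genotype difference of Sprr1a, the small proline-rich envelope precursor, had opposite signs in 2 cell types. In Fibroblast proliferating cells every ko/ko sample lay below every wt/wt sample, and in RPE cells every ko/ko sample lay above. The log2 ratio of Fibroblast proliferating to RPE changed by −2.509 from wt/wt to ko/ko. The pair was picked because the groups did not overlap, in opposite directions. That choice fixes the exact permutation p of the ratio at 0.1, so this p adds nothing, and the difference has no independent test. The RPE side of this ratio rests on 162 UMIs in 43 cells. Its values in wt/wt replicates 1 and 3 rest on 1 and 2 UMIs, under the floor of 3 counts.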

How the results depend on the processing

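No member was called between genotypes in the reported fits, and this count changed to 1 under some alternatives. It was 1 with DESeq2 in whole samples (Crct1) and in Fibroblast proliferating (Sprr1a), and 1 with the batch as a covariate in Fibroblast, Fibroblast proliferating, sub-cluster 1 and sub-cluster 2. The share of all genes called with that covariate in these types and sub-clusters is not given here. Those counts are therefore descriptions only. Leaving out 1 sample gave 0 to 1 members called in whole samples, Fibroblast, Fibroblast proliferating, Myeloid and sub-clusters 1, 2 and 4. The calls of Crct1 in Myeloid (−1.92) and Sprr1a in sub-cluster 4 (−3.20, voom-limma adjusted p = 0.0491) came without wt/wt replicate 3, and both were lower in ko/ko. In Myeloid the call rests on 1 wt/wt sample that is taken to vary like the others. In sub-cluster 4 a single cell held all 47 Sprr1a UMIs of wt/wt replicate 1. Of the other values, 134 under alternatives and 147 with 1 sample left out stayed within 1.5 times (counts) or 1 SD over samples (levels and shares). Among them the sign turned with 1 sample left out for the ratio of Lce3c in sub-cluster 3 to sub-cluster 1 (−0.51 to 0.28), of Crct1 in RPE to fibroblasts (−0.18 to 0.68) and for the difference in the share of member-positive fibroblasts (−1.93 to 1.91 percentage points). Leaving out 1 sample turned the sign of 5 member differences, none of them called. These were Lce1g in whole samples (range −0.018 to 0.94), Lce3c (range −0.88 to 2.02) and Lce3d (range −0.017 to 0.88) in whole samples, and, in fibroblasts, Lce1h (range −0.070 to 0.40) and Lce3c (range −1.71 to 1.51). The cause was not tested. The number of genes called over all genes depended on the tool, with 0 in whole samples against 378 with DESeq2 and 118 with the batch as a covariate, and 2 in fibroblasts against 407, 207 and, with no filter on low counts, 124. With a replicate block 0 members were called in every comparison, and the Crct1 difference in whole samples was 0.67 (voom-limma adjusted p = 0.243). The replicate numbers did not pair the samples. The count of cells at 10 or more UMIs and the levels without the richest cells were chosen after seeing the data. So was leaving out the 26 fibroblasts that were richest in a member in their sample, which gave a Sprr1a difference of −1.05 and a Lce3d difference of 0.68 in fibroblasts. Few cells stand behind Lce3c, with 8 high fibroblasts in all.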

Other observations

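Outside the cells compared above, the Myeloid cells of ko/ko replicate 1 numbered 3, under the minimum of 10 cells, and held Crct1 at 1259 CPM and Sprr1a at 102 CPM, with all 173 Crct1 UMIs in 1 cell and all 14 Sprr1a UMIs in 1 cell. The Myeloid cells of wt/wt replicate 1 numbered 9 and were likewise left out. Among the fibroblast sub-clusters, sub-cluster 8 (168 cells) had a median of 91.1% mitochondrial UMIs and sub-cluster 6 (477 cells) a median of 21.0%.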
